A study of Homo sapiens with 2 samples.

Results

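WEE1, the CDC25 phosphatases and their partners decide when a cell leaves G2 and enters mitosis. Here 10 of these genes were followed through the sites called around them in CUT&Tag for EWS-FLI binding. Whether the fusion itself sits at a called site was not tested. The genes were WEE1, PKMYT1, CDC25A, CDC25B, CDC25C, CDK1, CDK2, CCNA2, CCNB1 and PLK1, out of 20037 protein-coding genes placed on chromosomes 1 to 22, X and Y by RefSeq. Every called interval inside a gene or within 100 kb of either of its ends was taken, which gave 36 of 16284 intervals with siNEG and 8 of 6370 with siEWS-FLI. The 10 windows covered 2.18 Mb. CUT&Tag, in which a transposase tethered to an antibody cuts and tags the DNA where its target sits, was run on TC32, an established Ewing sarcoma cell line. The siEWS-FLI library came from cells given the agent against the EWS-FLI fusion, and the siNEG library from cells given the arm set beside it. Both arms are the same line with no other allele or agent named, the labels spell out neither siNEG nor the antibody, and the sources used here do not give the time after treatment. Each group is 1 library, which leaves every difference without a replicate check, and no test was run.

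WEE1 and PKMYT1 encode kinases that hold the cyclin-dependent kinase CDK1 inactive by phosphorylating it near its ATP-binding site. The CDC25 phosphatases remove those phosphates, cyclin A2 and cyclin B1 are the partners that activate CDK1 and, for cyclin A2, CDK2, and PLK1 is the polo kinase that promotes CDC25 activity and WEE1 destruction at mitotic entry. The ATR and CHK1 kinases act on the same switch by inhibiting CDC25 proteins, which ties it to the series' subject of ATR inhibition and cisplatin. EWS-FLI joins EWSR1 to FLI1, an ETS factor, and such factors bind a GGAA core. Many mitotic entry genes are instead known for promoters with CCAAT boxes, bound by NF-Y. Such promoters often also hold a cell cycle homology region (CHR), bound by the MuvB complexes. The CHR was searched here as TTTGAA alone, so a CHR with other letters would not be marked.

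At the starts of these genes the siNEG sites were weak, with 5 to 19 reads over the strongest base, while the strongest sites of the windows lay at the starts of neighbours. RefSeq stretches from both kinds of place are printed below so that their letters can be read beside the sites; whether the letters bear on the strength of a site was not tested. They are read 5′ to 3′ on the gene's strand on GRCh38.p14, and capitals mark every match, on either strand, to the motifs CCGGAAGT (high-affinity ETS), CGGAAG (ETS core, also contained in the motif before), GGAAGGAA (tandem ETS core), TTTGAA (CHR), TTTCCCGC and TTTGGCGC (E2F), CCAAT (NF-Y), the 10-base palindrome of NRF1 and GGGCGG (GC box). The stretches were chosen as follows: 3 members with a siNEG site at their outer start (CDC25A chr3:48188418-48188667, CCNA2 chr4:121823884-121824133, CCNB1 chr5:69166900-69167149), the inner start of CDC25C with its stronger site (chr5:138331878-138332127), PLK1 as a member with no site at its start (chr16:23678639-23678888), and the 2 strongest neighbour sites, between DCTN5 and PALB2 (chr16:23641311-23641471) and between the start of DGKA and the inner of the PYM1 starts (chr12:55927126-55927315). The last of these lies inside PYM1, whose outer listed start, 55927894, is beyond the DGKA start. CDC25A, CCNA2 and CDC25C are on the minus strand and the others are shown on the plus strand. Each ends just before the listed start, except that the DCTN5 stretch runs on for 6 bases to keep a motif whole.
CDC25A: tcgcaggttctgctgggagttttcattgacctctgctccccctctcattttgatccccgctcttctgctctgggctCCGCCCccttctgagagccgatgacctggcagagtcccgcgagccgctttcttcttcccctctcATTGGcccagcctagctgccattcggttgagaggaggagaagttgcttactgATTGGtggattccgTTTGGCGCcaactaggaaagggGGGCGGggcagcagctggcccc
CCNA2: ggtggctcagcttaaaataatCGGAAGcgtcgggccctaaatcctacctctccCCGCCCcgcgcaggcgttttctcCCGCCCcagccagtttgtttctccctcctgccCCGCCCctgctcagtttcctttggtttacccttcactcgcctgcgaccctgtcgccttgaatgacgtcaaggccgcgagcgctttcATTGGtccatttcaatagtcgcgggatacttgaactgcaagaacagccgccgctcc
CCNB1: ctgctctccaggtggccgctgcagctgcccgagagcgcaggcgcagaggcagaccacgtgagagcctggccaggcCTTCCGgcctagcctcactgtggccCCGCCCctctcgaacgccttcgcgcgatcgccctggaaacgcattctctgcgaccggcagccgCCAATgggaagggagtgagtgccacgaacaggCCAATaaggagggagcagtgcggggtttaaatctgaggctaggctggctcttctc
CDC25C, inner start: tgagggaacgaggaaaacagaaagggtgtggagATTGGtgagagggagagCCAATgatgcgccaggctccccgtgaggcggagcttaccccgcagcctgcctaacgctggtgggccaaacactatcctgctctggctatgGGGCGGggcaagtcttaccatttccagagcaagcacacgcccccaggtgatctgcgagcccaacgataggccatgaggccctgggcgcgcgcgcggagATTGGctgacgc
PLK1: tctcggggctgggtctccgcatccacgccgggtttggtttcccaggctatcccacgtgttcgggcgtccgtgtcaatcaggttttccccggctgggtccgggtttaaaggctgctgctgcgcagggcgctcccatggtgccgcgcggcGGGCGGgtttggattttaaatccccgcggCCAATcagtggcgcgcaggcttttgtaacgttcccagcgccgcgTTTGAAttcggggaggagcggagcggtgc
DCTN5 to PALB2: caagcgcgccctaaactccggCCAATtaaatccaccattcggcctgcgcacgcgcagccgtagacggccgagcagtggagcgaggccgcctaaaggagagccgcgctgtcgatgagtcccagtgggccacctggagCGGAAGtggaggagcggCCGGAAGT
DGKA to PYM1: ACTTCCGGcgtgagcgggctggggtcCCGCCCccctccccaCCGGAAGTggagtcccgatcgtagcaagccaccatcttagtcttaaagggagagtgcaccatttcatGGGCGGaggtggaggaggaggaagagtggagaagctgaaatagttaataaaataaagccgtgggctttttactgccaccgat

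CCAAT boxes and GC boxes were present in at least 1 RefSeq promoter window of every member with a promoter entry. RefSeq promoter windows, from 250 bases before a start to 50 after it, were at hand for 7 of the 10 genes, in 14 windows; WEE1, PKMYT1 and CDK2 have no entry. CCAAT was in 10 of the 14 windows and GGGCGG in 12, each with at least 1 window in all 7 genes. Over all 35116 RefSeq windows, 34.6% held CCAAT and 45.0% held GGGCGG. These are shares of single windows, and a gene with several windows has more chances of a match. CCGGAAGT was in 0 of the 14 windows, against 4.14% of all windows. At so low a share, 0 of 14 does not set the members apart. The shorter ETS core CGGAAG was in 5 of the 14, at CCNA2, CCNB1, CDC25B and CDC25C, against 19.5% of all. TTTGAA was in 5, at CDC25C, CDK1 and PLK1, against 15.2% of all, and TTTGGCGC was in 1, at CDC25A, against 0.652%. GGAAGGAA, TTTCCCGC and the NRF1 motif were in none of the 14, against 3.67%, 1.63% and 1.24% of all. A match is a description of the letters and is not a bound site.

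**Figure D1:**
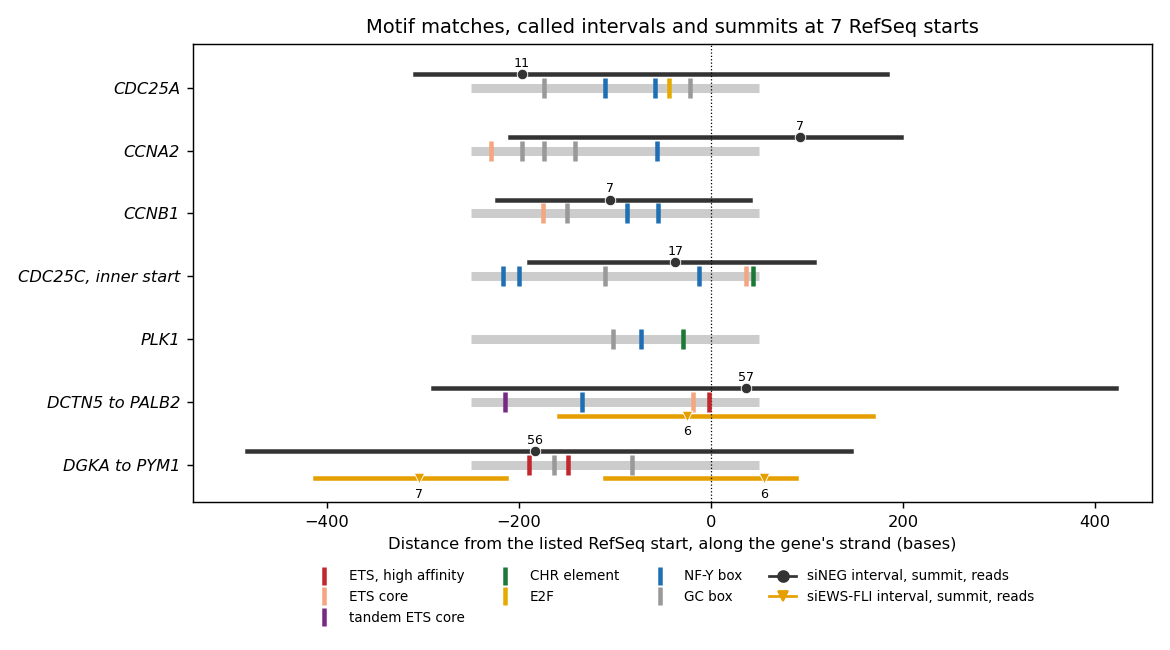
Motif matches (vertical ticks on the grey RefSeq window), called intervals (lines), summits (points) and summit reads (numbers) against the distance in bases from 7 listed RefSeq starts, along each gene's strand, with siNEG above and siEWS-FLI below each window. The siNEG summits at CDC25A, CCNA2, CCNB1 and the inner CDC25C start hold 7 to 17 reads, against 57 and 56 at DCTN5 and DGKA, and the 2 DGKA-side high-affinity ETS matches lie under or within 34 bases of the 56-read summit.

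The values below are summit pileups, the number of reads, extended to 200 bases, over the strongest base of an interval. They are raw reads, given with exact 95% Poisson intervals that cover counting error only; reads from PCR libraries are not independent molecules. The libraries were not equally deep. Read totals estimated from the peak caller's background, for an assumed mappable genome of 2700000000 bases and leaving out a mitochondrial window, were 2848847 with siNEG and 1600042 with siEWS-FLI, a ratio of 0.562. Over all intervals the median pileup was 8 with siNEG and 5 with siEWS-FLI. Of 8 known EWS-FLI target loci, all 8 had a siNEG site in the same window, from 5 reads at SOX2 to 61 near CCND1, and 2 had a site at their own start. Of 9 marker genes of liver, blood and epithelium, 6 had a siNEG site within 100 kb and 0 at their own start. Over all protein-coding genes, 82.9% had a siNEG site inside or within 100 kb and 32.9% had one at their own start. The small marker counts were not tested against these shares.

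A called siNEG site lay within 1 kb of the start of 6 of the 10 genes, against 32.9% of all protein-coding genes. These were WEE1, PKMYT1, CDC25A, CDC25C, CCNA2 and CCNB1, with pileups from 5 to 19 reads and a median of 9. Over the 6590 genes with such a site the median of the strongest was 12 reads, and 32.3% of them exceeded the 19 reads of the highest member. For WEE1, PKMYT1 and CDK2 no strand was given, so both gene ends were taken for them. With siEWS-FLI 1 of the 10 genes had a site within that distance, against 11.6% of all genes. That site, 969 bases from an end of CDK2, was 191 bases from the start of RAB5B and is counted below as RAB5B's. With the nearest gene end required to be the gene's own, 6 of the 10 genes had a siNEG site and 0 a siEWS-FLI site, against 27.7% and 9.31% of all genes. Among the 4259 genes whose strongest siNEG pileup lay in the members' range of 5 to 19 reads, 16.6% had a siEWS-FLI site at their start. None of the 6 own-start sites of the members overlapped a siEWS-FLI interval, a share of 0 of 6 that allows up to 45.9% by the exact binomial interval. Of 3779 gene-start siNEG sites in the same pileup range, 14.1% overlapped one. The count therefore does not set the members' sites apart from those sites.

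Of the inhibitory kinases, PKMYT1 had the strongest own-start site of the 10 genes. Its siNEG summit held 19 reads (11.4 to 29.7) in chr16:2980394-2980808, 234 bases outside a gene end. It was not called with siEWS-FLI, where at the siNEG local background up to 7 reads would have stayed uncalled. WEE1 had 11 reads (5.49 to 19.7) in chr11:9573196-9573490, 370 bases outside a gene end. There a siEWS-FLI pileup of up to 6 would have stayed uncalled at the siNEG local background. No other gene end lay within 1 kb of either summit. WEE1 had 1 more siNEG site, of 8 reads (3.45 to 15.8), 24.1 kb outside the gene with no other protein-coding gene end closer to it. The intervals of all these pileups overlap, so WEE1 and PKMYT1 did not differ beyond counting error.

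The 3 CDC25 genes differed in where their sites lay. CDC25A, whose product acts from the start of S phase on, had 11 siNEG reads (5.49 to 19.7) in chr3:48188234-48188725, 197 bases before its start. This summit is 23 bases from the nearest GC box and 153 from the TTTGGCGC match of the sequence above. A further CDC25A site of 8 reads (3.45 to 15.8) lay inside the gene, 9.92 kb from the start. CDC25C, the phosphatase known for mitotic activation of CDK1, had 5 reads (1.62 to 11.7) in chr5:138338001-138338391, 275 bases after its outer start, with the start of FAM53C also within 1 kb. Its stronger site, of 17 reads (9.90 to 27.2), was inside the gene in chr5:138331770-138332067, 37 bases before the nearer listed inner start at 138331877. The start of the non-coding gene LOC100128966 was 191 bases from that summit, and the nearest protein-coding gene end was that of FAM53C, 5.64 kb away. The printed inner-start stretch holds 3 CCAAT matches, and the nearest lies 25 bases from the summit. Past the end of that stretch, 37 and 44 bases after this start, come CGGAAG and TTTGAA, which are 73 and 80 bases from the summit. The same matches lie 37 and 30 bases before the other listed inner start, 138331804. CDC25B had 4 listed starts and 0 sites inside the gene, and its nearest siNEG summit was 14.3 kb away. None of the 3 genes had a siEWS-FLI interval in its window, and at the siNEG local background 3 to 6 reads would have stayed uncalled at their siNEG sites.

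With siNEG both mitotic cyclin genes had a weak site at the start, and CDK1 and CDK2 had none. Over all protein-coding genes 32.9% had such a site. Each cyclin site held 7 reads, close to the 5 reads of the weakest siNEG site in the windows, so the contrast rests on few reads. How many siNEG reads stayed uncalled at the starts without a site is not known. CCNA2 had 7 siNEG reads (2.81 to 14.4) in chr4:121823685-121824092, 93 bases after its start, and this was the sole siNEG interval of its window. CCNB1 had 7 reads (2.81 to 14.4) in chr5:69166927-69167191, 105 bases before its start and 18 bases from a CCAAT match. With siEWS-FLI up to 3 reads would have stayed uncalled at the CCNA2 site and up to 4 at the CCNB1 site. CDK1 had a single siNEG interval in its window, of 8 reads (3.45 to 15.8), 33.3 kb outside the gene and nearest, at 32.7 kb, to RHOBTB1. The 2 listed CDK1 starts had TTTGAA and CCAAT matches and no called site within 1 kb in either library. PLK1 had no site inside the gene, and its nearest siNEG summit lay 15.1 kb away, with 5 reads (1.62 to 11.7). Its printed start has a TTTGAA match 29 bases and a CCAAT match 73 bases before the start. CDK2 had no site of its own in either library.

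**Figure D2:**
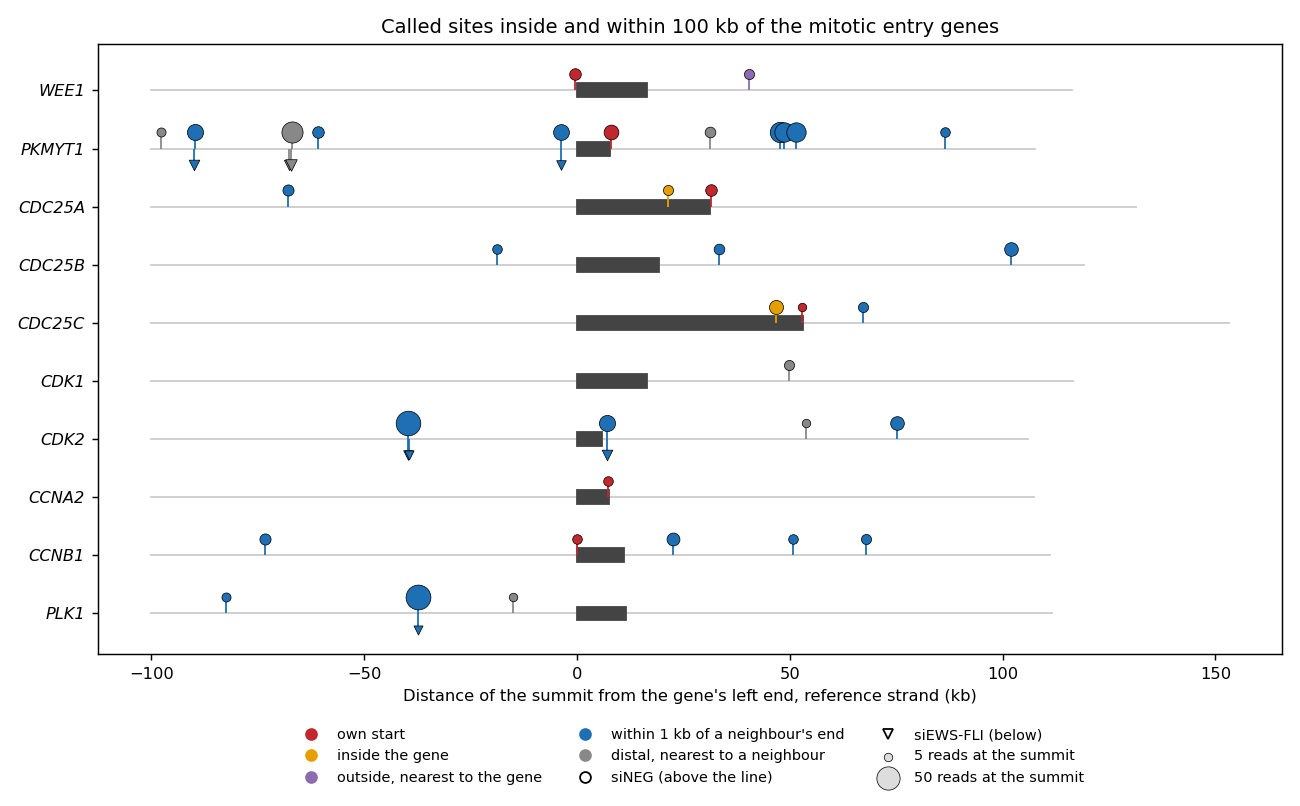
Called summits in the 10 gene windows against the distance in kb from each gene's left end, with the gene as a dark bar, siNEG circles above and siEWS-FLI triangles below the line, and area rising with summit reads. The 6 own-start sites are small circles, and the siEWS-FLI triangles are confined to the PKMYT1, CDK2 and PLK1 windows.

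All 10 genes had at least 1 siNEG interval in their window, against 82.9% of all protein-coding genes, and 3 had a siEWS-FLI interval, against 59.3%. The 36 siNEG sites comprised 6 at the members' own starts, 2 inside the members, 1 outside but nearest to a member, 21 within 1 kb of a neighbour's end and 6 distal sites nearest to a neighbour. The 8 siEWS-FLI sites were 6 at neighbours' ends and 2 distal. The sites at neighbours' ends ran from 6 to 57 siNEG reads with a median of 14, above the 5 to 19 reads and median of 9 at the members' starts, with overlap between them. The PKMYT1 window held 11 siNEG sites, and its gene density was the highest, with 14 neighbouring protein-coding genes. CCNA2 and CDK1 had 1 siNEG site each, with 4 and 1 neighbours. Over the windows together, 25 of 51 neighbouring genes had a siNEG site at their start (49%, 34.8 to 63.4) and 8 a siEWS-FLI site (15.7%, 7.02 to 28.6). The pileup plot by gene sets the neighbours' sites beside the members' own. With 21 sites against 6, a higher maximum is likely from number alone, and 7 of the 21 lay in the PKMYT1 window.

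**Figure D3:**
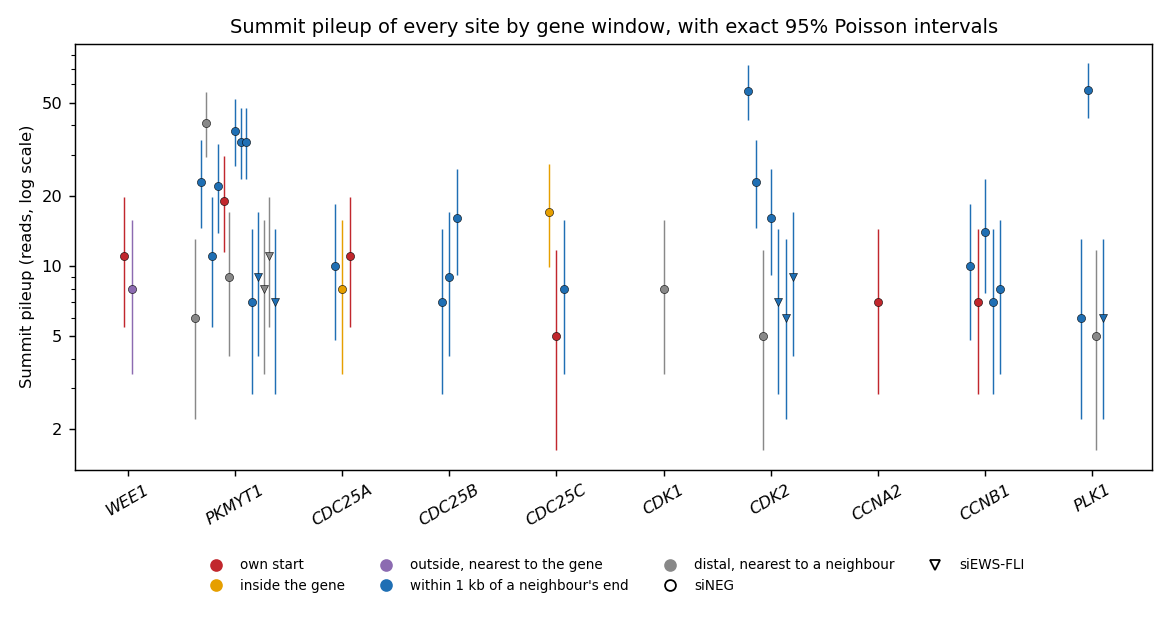
Summit pileup in reads (log scale) of each of the 44 intervals, grouped by gene window and coloured by position, with exact 95% Poisson intervals; circles are siNEG and triangles siEWS-FLI. The own-start circles lie between 5 and 19 reads, and the highest points, 57 and 56 reads, belong to neighbours in the PLK1 and CDK2 windows.

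Sites called in both libraries were all neighbours' sites. Of the 36 siNEG sites 6 overlapped a siEWS-FLI interval (16.7%, 6.37 to 32.8), against 15.6% of all siNEG sites. Of the 8 siEWS-FLI sites 7 overlapped a siNEG interval (87.5%, 47.3 to 99.7), against 41.1% of all. Among the 7, 2 overlap the same siNEG interval at DGKA, and the binomial interval treats them as separate. The 8 sites had a median of 7.5 reads, against 5 over all siEWS-FLI intervals, and their share was not set against sites of like pileup. Sharing went with siNEG pileup: 0 of 17 window sites with 4 to 9 reads were shared, 0 of 10 with 10 to 19, 4 of 7 with 20 to 49 and 2 of 2 with 50 to 99. Over the whole list the shares in these classes were 3.59%, 16.7%, 41.4% and 74.7%. All 6 own-start sites of the members fell in the classes below 20 reads.

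The strongest shared site lay in the PLK1 window, 37.4 kb from PLK1, at the facing starts of DCTN5, a subunit of the dynactin complex, and PALB2, which links BRCA1 and BRCA2 in homologous recombination. It had 57 siNEG reads (43.2 to 73.9) in chr16:23641176-23641888 and 6 siEWS-FLI reads (2.2 to 13.1) in chr16:23641308-23641635, a ratio of 0.105 (exact interval 0.0371 to 0.244), siEWS-FLI over siNEG. The siNEG summit lies 32 bases from the CCGGAAGT match across the DCTN5 start. In the CDK2 window, 39.7 kb from CDK2, the start of DGKA, a diacylglycerol kinase gene, and the inner start of PYM1 had 56 siNEG reads (42.3 to 72.7) in chr12:55926833-55927462. Here siEWS-FLI gave separate intervals of 7 reads (2.81 to 14.4) and 6 reads (2.2 to 13.1) on either side of the siNEG summit, and the stronger had a ratio of 0.125 (0.0481 to 0.275). That siNEG summit falls on the last printed base of an opposite-strand CCGGAAGT match, printed as ACTTCCGG, and another match lies 34 bases away. The siNEG and siEWS-FLI intervals of pileup do not overlap at either place. RAB5B, an endosomal GTPase gene next to CDK2, had 23 siNEG reads (14.6 to 34.5) in chr12:55973592-55974218 and 9 siEWS-FLI reads (4.12 to 17.1), a ratio of 0.391 (0.159 to 0.878). Its summit was 63 bases before the RAB5B start and 1.10 kb from the CDK2 end.

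The PKMYT1 window held the other 3 shared sites. FLYWCH2 had 23 siNEG reads (14.6 to 34.5) in chr16:2882588-2883209 and 9 with siEWS-FLI (4.12 to 17.1), a ratio of 0.391 (0.159 to 0.878). A distal site between FLYWCH2 and FLYWCH1, 6.17 kb from the FLYWCH1 start, had 41 reads (29.4 to 55.6) in chr16:2905362-2906143 and 11 with siEWS-FLI (5.49 to 19.7), a ratio of 0.268 (0.124 to 0.531). Beside it lay the sole siEWS-FLI interval of the windows without a siNEG overlap, of 8 reads (3.45 to 15.8) in chr16:2904836-2905035. PAQR4, whose start lies next to an end of KREMEN2 and whose site is 3.78 kb from PKMYT1, had 22 siNEG reads (13.8 to 33.3) in chr16:2968838-2969172 and 7 with siEWS-FLI (2.81 to 14.4), a ratio of 0.318 (0.115 to 0.771). Neither RAB5B, FLYWCH2 nor PAQR4 has a CGGAAG match in its RefSeq window, and each has CCAAT and GGGCGG, with a CCAAT match 1 base from the RAB5B summit.

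Over the 6 shared sites the median ratio was 0.293, from 0.105 to 0.391, against a median of 0.310 over all shared sites. Among all shared sites with a siNEG pileup from 20% below to 25% above that of the site, the medians were 0.174 for DCTN5, 0.177 for DGKA, 0.212 for the distal FLYWCH1 site, 0.318 for FLYWCH2 and RAB5B, and 0.333 for PAQR4. Each of these lies inside the interval of the site it is set beside. The intervals of DCTN5, DGKA and the distal FLYWCH1 site lay below the read ratio of 0.562, and those of FLYWCH2, RAB5B and PAQR4 included it. A site has to reach the caller's threshold in both lists to be shared, so ratios of weak sites cannot be low.

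**Figure D4:**
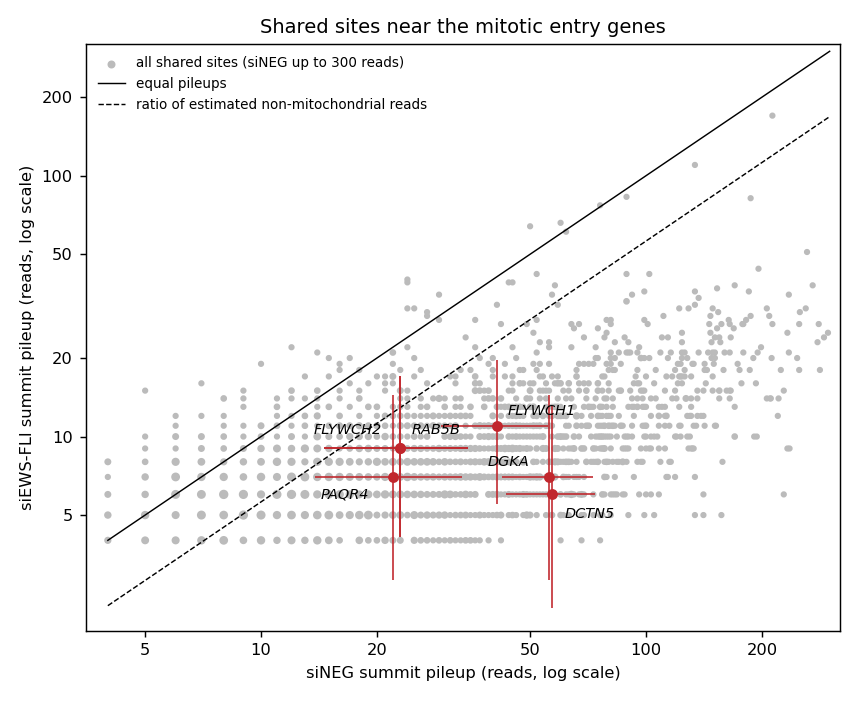
Summit pileups of the 6 shared sites (red, labelled by nearest gene end) in reads with siNEG (x, log scale) and siEWS-FLI (y, log scale), with exact 95% Poisson intervals, over all shared sites (grey), the line of equal pileups and the dashed line at the read ratio of 0.562. The 6 red points lie below the dashed line, among the grey points of like siNEG pileup; FLYWCH2 and RAB5B have the same 23 and 9 reads and coincide.

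Sites of 20 or more siNEG reads with no siEWS-FLI overlap were found in the PKMYT1 window alone. TNFRSF12A, which encodes the TWEAK receptor, had 38 reads (26.9 to 52.2) in chr16:3020210-3020807 at a gene end and 34 (23.5 to 47.5) in chr16:3021303-3021723. HCFC1R1, with the start of THOC6 beside it, had 34 reads (23.5 to 47.5) in chr16:3024057-3024342. The siNEG local background at these 3 sites was 5.90, 5.94 and 5.82 reads per base, against 0.348 for the siNEG library. At that background a siEWS-FLI pileup of up to 17 would have stayed uncalled. The siEWS-FLI background there is not known, and with a lower one fewer reads would be enough for a call. The remaining neighbours had 5 to 16 siNEG reads and no siEWS-FLI interval, and they are named after their values were seen. PANK2 in the CDC25B window and RPS26 in the CDK2 window had 16 reads each at their starts. In the CCNB1 window CENPH, a centromere protein gene, had 14 reads, and CDK7, the CDK-activating kinase, had 8 reads 152 bases from its start. MAP4 in the CDC25A window had 10 reads and KDM3B in the CDC25C window 8.

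Genes of the wider G2/M pathway had start sites in both libraries, in a list chosen with earlier results of these data known. Of 51 other genes of the pathway, all of which matched RefSeq, 31 had a siNEG site at their start (60.8%, 46.1 to 74.2) and 20 a siEWS-FLI site (39.2%, 25.8 to 53.9), against 32.9% and 11.6% of all protein-coding genes. By the same distance the 10 mitotic entry genes stood at 6 and 1, the 1 being RAB5B's site near CDK2, with intervals of 26.2% to 87.8% and 0.253% to 44.5%. With the nearest gene end required to be the gene's own, siEWS-FLI sites lay at 0 of the 10 genes (0% to 30.8%) and at 17 of the 51 (33.3%, 20.8 to 47.9). The members' share then lay below the pathway's, with intervals that overlap, and the difference was not tested. The median siNEG pileup of the 31 was 16 reads, against 12 over all genes with a site. Over all protein-coding genes, start sites with 4 to 9, 10 to 19, 20 to 49 and 50 to 99 siNEG reads were shared at 7.25%, 21.6%, 52.4% and 82.3%. Of the 31 genes 17 had a shared site, a count that was not set against genes of like pileup. The highest were CKS1B, a CDK-binding subunit, with 235 siNEG (site nearest to SHC1) and 35 siEWS-FLI reads, LIN37, a MuvB subunit, with 173 and 19, FZR1, an activator of the anaphase-promoting complex, with 90 and 5, FBXW11, an F-box protein, with 64 and 6, and TPX2, the activator of Aurora A, with 54 and 8.

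By role, the counts with siNEG and siEWS-FLI were 6 and 5 of 7 for turnover, and 5 and 5 of 11 for G2/M transcription. They were 5 and 2 of 6 for the Greatwall pathway and 6 and 4 of 12 for checkpoint inputs. Polo and Aurora kinases had 3 and 2 of 5, and cyclins, CDKs and partners 6 and 2 of 10. Over all protein-coding genes the shares were 32.9% and 11.6%, and these small classes were not tested against them. Some of the siNEG sites lie nearest to another gene, as at CCNE2 (NDUFAF6), AURKA (CSTF1) and BORA (MZT1). In turnover, CDC20 had 26 siNEG and 6 siEWS-FLI reads, FBXO5, which encodes the inhibitor EMI1, had 37 and 11, and BTRC, which targets WEE1 and CDC25A for destruction, had 7 and 9. In G2/M transcription, RBBP4 had 43 and 9 (site nearest to ZBTB8OS), E2F4 had 32 and 8, and LIN52 24 and 6. Of the checkpoint inputs CLSPN, which brings CHK1 to ATR, had 28 and 11, YWHAG, a 14-3-3 protein gene, 22 and 5, and CHEK2 13 and 9 (site nearest to HSCB). ENSA, a Greatwall substrate, had 26 and 13, PPP2CA, the catalytic subunit of the phosphatase PP2A, 16 and 5, and CKS2 45 and 11. Sites at the start with siEWS-FLI and not with siNEG lay at PLK4 (5 reads), CDKN1B (4) and LIN54 (6), which were named after their values were seen.

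**Figure D5:**
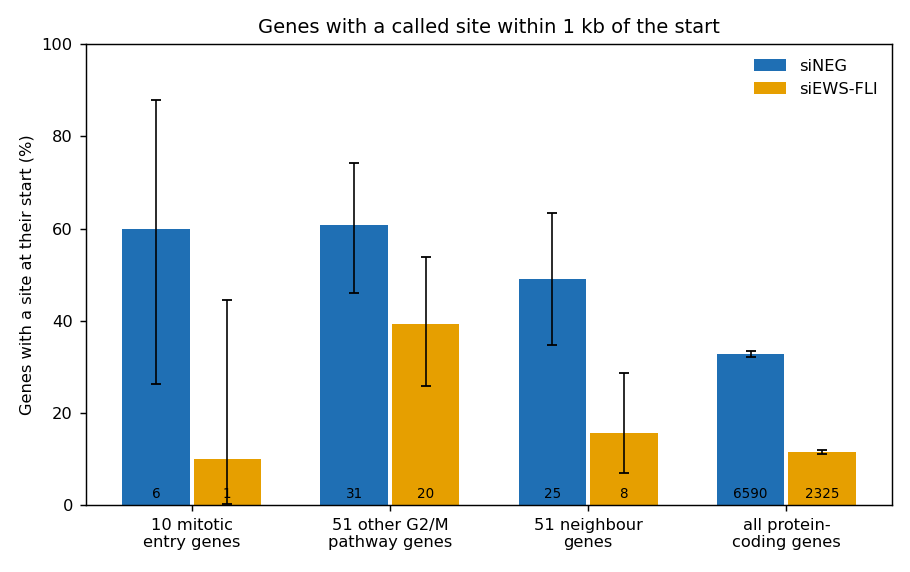
Percent of genes with a called site within 1 kb of the start, with siNEG (blue) and siEWS-FLI (orange), for the 10 mitotic entry genes, 51 other pathway genes, 51 neighbouring genes and all protein-coding genes; numbers at the foot count genes and bars are exact 95% binomial intervals. The 10 genes stand at 60% and 10%, where the 10% is the RAB5B site near CDK2 and becomes 0%, with an upper limit of 30.8%, when the nearest gene end has to be the gene's own.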

How the data were processed

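CUT&Tag for EWS-FLI binding was measured in TC32 cells, 1 library with siEWS-FLI and 1 with siNEG, grouped by the treatment label. PCR ran for 14 and then 20 cycles, per the labels' protocols. The submitters' processing notes list the build hg38 and the tools MACS2 2.2.9.1, Bowtie2 2.4.5 and Trim Galore 0.6.6, with no role. The sources used here do not give a control library, the handling of duplicates or fragment settings. The authors deposited 1 peak list per library. The deposited fold is a linear ratio over local background, the deposited −log10 p and −log10 q values belong to the summit, and the deposited display score stayed unused. The smallest deposited −log10 q was 1.32 with siNEG and 1.33 with siEWS-FLI.

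Lines that share an interval were merged on the highest −log10 q. The summit pileup was solved as the whole number k with fold (k plus 1) over (background plus 1) and the Poisson upper tail as p. It solved 100% of lines within 0.001 in log10 p, growing in proportion above 10, and was tested on simulated data. The siNEG and siEWS-FLI library backgrounds were 0.348 and 0.239 reads per base. Shared means an overlap of at least 1 base. Own start means a summit within 1 kb of the gene's start, with strand from the RefSeq promoter table (15842 of 20037 protein-coding genes), and either gene end where no strand is given. The gene table holds no exons, and RefSeq GRCh38.p14 has the coordinates of hg38. Ratios have exact conditional binomial intervals. The count that stays uncalled is the highest pileup under the smallest −log10 p of the siEWS-FLI list at the siNEG local background. It is too high where the siEWS-FLI background is lower. At DCTN5 the count is 9 at the siNEG background of 2.08. There siEWS-FLI was called with 6 reads at a background of 0.300. The rule named all members, shared and siEWS-FLI-only window sites, window sites of 20 or more siNEG reads, pathway genes with a shared start site and the 5 strongest of them. The members and lists were chosen with earlier results of these data known. Python 3.11.15, numpy 2.4.6, pandas 2.3.3 and scipy 1.17.1 were used.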

Additional observations from a re-analysis of the deposited data

How the results depend on the processing

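Of 60 alternative values computed, 45 stayed near the main value. For a count this meant within 1.5 times. For the ratio it meant a distance from the main median of 0.293 of at most 50% of an interval's width. That interval was the exact one of the pooled ratio of the shared sites, 0.159 to 0.302. With the siNEG list shortened to as many lines as the other list, 2 members kept a siNEG site at their start and 17 siNEG sites were left in the windows, by construction of the shorter list. The 1 member with a siEWS-FLI site at its start became 0 within 500 bases and 0 when the nearest gene end had to be the gene's own, a setting added after seeing the data together with that of any listed start. Smaller windows left 10 siNEG sites at 10 kb, and 5 and 2 siEWS-FLI sites at 50 and 10 kb, with 2 shared at 10 kb. At −log10 q of at least 5 there were 3 siEWS-FLI sites, 3 shared sites with a median ratio of 0.391, and 11 pathway genes with a siEWS-FLI site at their start. Intervals wider than the narrowest listed left 4 siEWS-FLI sites, and a reciprocal overlap of 50% left 1 shared site. Divided by the estimated reads outside the mitochondrial window, the median ratio was 0.522. No paired analysis was possible because each group has 1 library and the labels carry no replicate numbers. Depth limits what can be seen at the members' own starts, where siNEG gave 5 to 19 reads. At the siNEG local background a siEWS-FLI pileup of up to 3 to 7 would have stayed uncalled there. The siEWS-FLI background at these starts is not known, and with a lower one fewer reads would be enough for a call.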

Other observations

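Over all 35116 RefSeq promoter windows, 25.3% had a siNEG summit within 1 kb of the start. Among windows with CCGGAAGT the share was 81.7%, with the NRF1 motif 57.0%, with CGGAAG 55.4%, with TTTGGCGC 51.5%, with TTTCCCGC 45.1% and with GGGCGG 41.5%. Among windows with CCAAT it was 28.8%, with GGAAGGAA 21.7% and with TTTGAA 13.7%. The motifs overlap, windows of 1 gene repeat, and base composition was not held equal, so these shares are a description. Of the 14 windows of the mitotic entry genes, 12 held GGGCGG, 10 CCAAT, 5 CGGAAG, 5 TTTGAA, 1 TTTGGCGC and 0 CCGGAAGT, GGAAGGAA, TTTCCCGC or the NRF1 motif.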
